A study of Gallus gallus with 6 samples.

Results

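The genes described here are those of protein folding in the endoplasmic reticulum (ER) and of the unfolded protein response: ER chaperones, enzymes of disulfide formation, small ER stress proteins, components of ER-associated degradation (ERAD), the translocation machinery, and the stress sensors with their transcription factors and targets. The list holds 39 gene symbols. Of these, 35 were found by NCBI Gene ID among the 20498 genes of the deposited table, and all 35 passed the filter of a mean of 1 FPKM (mapped fragments scaled to exon length and to the fragments of the library), which 10886 genes passed in all. SYVN1, ATF6, DDIT3 and TRIB3 had no entry in the gene table used for names and were not analysed here.

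Liver mRNA of 6 male F1 chickens of the dwarf Jingxing-Huang (JXH) line was measured by RNA-seq at 36 weeks of age, with 1 library per bird. The 3 fatty liver birds belonged to the paternal inheritance group, whose sires had fatty liver induced by a high-fat (HF) diet. These sires were mated with hens without fatty liver. According to the paper, the HF diet was given to the parents of that group as a whole, hens as well as cocks. The 3 control birds had non-fatty liver and came from parents raised on the basal diet. All 6 birds were themselves fed the basal diet. Every bird with fatty liver was paternal and every bird without it was a control. The phenotype, the paternal group and the diet of both parents therefore cannot be told apart. Whether birds of a group shared a sire is not given in the sources used here. The libraries held 9628492 to 10073155 mapped fragments in fatty liver birds and 8860634 to 10403637 in control birds, of which the members took 0.650 to 0.930% and 0.554 to 0.752%.

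Secreted and membrane proteins enter the ER through the SEC61 channel, where chaperones bind them and protein disulfide isomerases form their disulfide bonds. When unfolded protein accumulates, the sensors ERN1 (IRE1), EIF2AK3 (PERK) and ATF6 are activated: ERN1 splices XBP1 mRNA, EIF2AK3 slows translation while ATF4 is translated, and ATF6 is cleaved to an active factor, and together these raise transcription of chaperones and ERAD genes. Much of this control is on translation, splicing and cleavage, which FPKM of a whole gene do not measure. The liver carries a large load of secreted protein such as albumin, and hepatocytes are rich in these proteins.

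Setting fatty liver beside control asks whether transcripts of this machinery differ between the birds. No member reached an adjusted p of 0.05 in limma (Benjamini-Hochberg over all 10886 tested genes), while 124 genes did, or 1.14% of those tested, 92 of them higher and 32 lower in fatty liver. The smallest adjusted p among members was 0.064, for ATF4, and 0 members were called by limma's voom on whole fragments as well. At an unadjusted p under 0.05 there were 7 of the 35 members, all higher in fatty liver, against 16.3% of all tested genes in either direction. Of the 10886 tested genes, 1371 were higher and 402 lower at that p. In 8 members the 3 fatty liver birds all lay above the 3 control birds, and in no member did they all lie below. Groups without overlap were found in 23.0% of all tested genes, and 18.3% lay higher in fatty liver, so that the members' 8 of 35 is near the share of all genes. The log2 fold change was above 0 in 30 of 35 members, against 67.2% of all tested genes, and the 95% interval held 0 in 28 members.

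The FPKM of most genes lay higher in fatty liver, with a median log2 fold change of 0.12 over all tested genes and 0.31 over the members. The distance between these medians, 0.19, was 0.057 without fatty liver bird 3 and 0.051 without control bird 3, and 0.36 without fatty liver bird 1 and 0.34 without control bird 1. Albumin (ALB), the main secreted protein of hepatocytes, took 9.60 to 11.5% of the summed FPKM in fatty liver birds, against 14.8 to 17.9% in control birds. After each library was scaled to an equal sum over all but the 50 most abundant genes (rescaled FPKM below), the median of all tested genes became -0.013 and that of the members 0.14. On that scale 26 members lay above 0, against 47.8% of all tested genes, and 6 members lay higher without overlap, against 10.4%. These 6 were P4HB, PDIA3, MANF, EIF2AK3, ATF4 and ASNS, while SSR2 and XBP1 then lay lower without overlap and CANX and DNAJB11 overlapped. Lower without overlap on that scale were 1205 of the 10886 tested genes. In either direction, 22.9% of members lay without overlap, near the 21.4% of all tested genes. In a bulk sample, fewer cells of a type and less RNA per cell cannot be told apart.

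**Figure D1:**
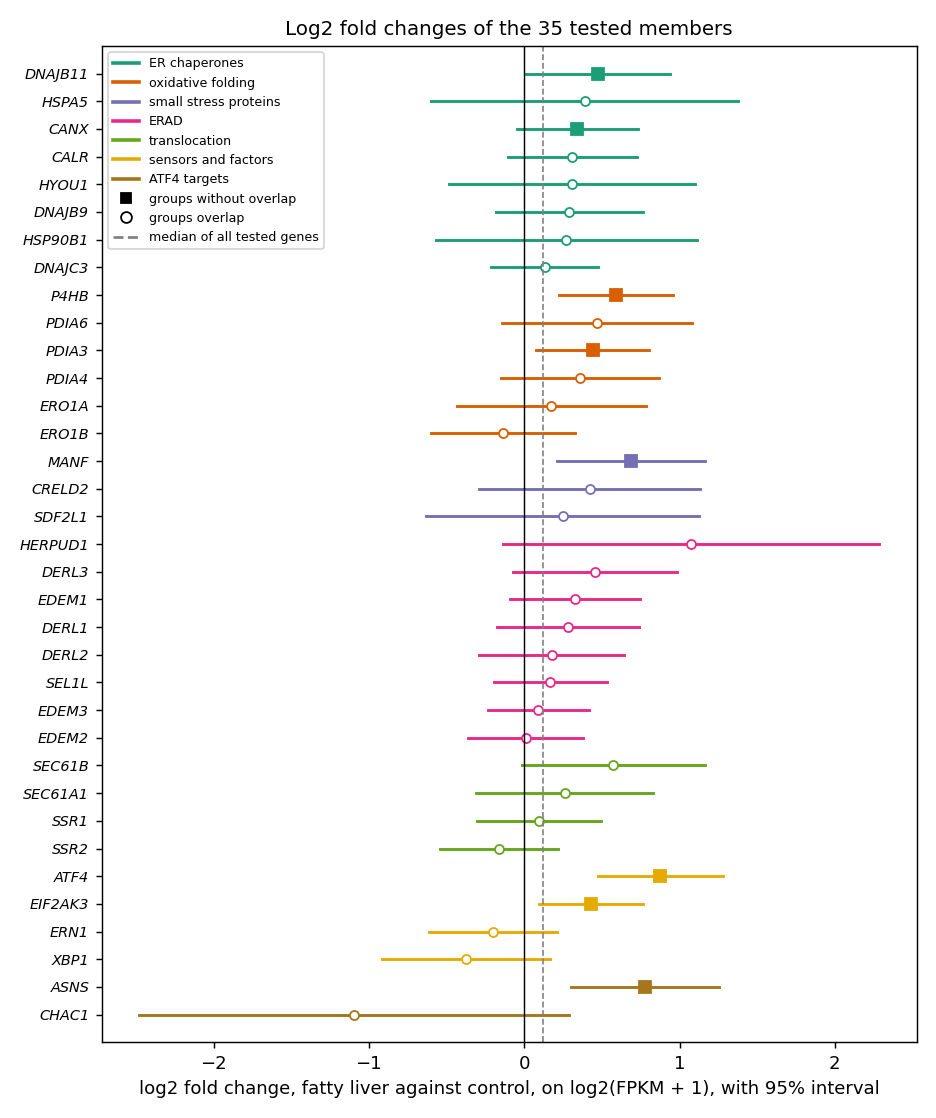
Log2 fold change, fatty liver against control, of each of the 35 tested members on log2(FPKM + 1), with its 95% interval from limma, grouped and coloured by role. Filled squares mark the 8 members whose groups did not overlap, open circles the other members, and the dashed line the median of all tested genes, 0.12. Points of the ER chaperones, small stress proteins and ERAD genes all lie above 0, as do 67.2% of all tested genes. The widest intervals are those of CHAC1 and HERPUD1.

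The 4 sensors and factors did not share a direction. ATF4, the transcription factor whose mRNA is translated when EIF2AK3 or related kinases slow general translation, had 267, 312 and 339 FPKM in fatty liver birds 1, 2 and 3, against 189, 144 and 167 FPKM in control birds 1, 2 and 3. The lowest fatty liver bird was well above the highest control bird. ATF4 averaged 306 ± 36.7 FPKM in fatty liver and 166 ± 22.4 FPKM in control (SD, n = 3 each), a log2 fold change of 0.88 (SE 0.18, 95% interval 0.47 to 1.28) with an adjusted p of 0.064 in limma. Over the 15 alternatives tried its adjusted p ran between 0.061 and 0.22 and never passed the threshold. On the rescaled FPKM its log2 fold change was 0.71.

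EIF2AK3, the ER membrane kinase that phosphorylates the initiation factor eIF2, had 9.98, 8.97 and 10.1 FPKM in fatty liver birds 1 to 3, against 7.26, 6.30 and 7.21 FPKM in control birds 1 to 3. The groups were apart and each was tight. Its log2 fold change was 0.43 (SE 0.15, adjusted p 0.20 in limma), and its spread within groups was at percentile 3.46 of all tested genes. ERN1, the kinase and endonuclease that splices XBP1 mRNA, had 6.08, 4.06 and 4.35 FPKM in fatty liver birds, against 5.10, 5.62 and 6.18 FPKM in control birds. Fatty liver bird 1 lay among the controls, the other two below all of them, and the log2 fold change was -0.20 (95% interval -0.61 to 0.21). XBP1, the factor made active by that splicing, had 93.4, 130 and 156 FPKM in fatty liver birds and 161, 196 and 134 FPKM in control birds. Only fatty liver bird 3 exceeded any control bird, and the log2 fold change was -0.38 (SE 0.23, adjusted p 0.47 in limma) and -0.17 without fatty liver bird 1. Spliced and unspliced XBP1 are counted together in a gene's FPKM.

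The pair of measured ATF4 and CHOP targets in the list went separate ways. ASNS, asparagine synthetase and a textbook target of ATF4 in mammals, had 4.52, 5.71 and 7.12 FPKM in fatty liver birds, against 2.19, 3.21 and 3.42 FPKM in control birds. Its groups did not overlap, and the log2 fold change was 0.78 (SE 0.21, adjusted p 0.12 in limma). CHAC1, which degrades glutathione, had 58.9, 419 and 160 FPKM in fatty liver birds, against 396, 275 and 361 FPKM in control birds. The highest of all 6 birds and the lowest were both fatty liver birds. Its log2 fold change of -1.10 (SE 0.60, 95% interval -2.48 to 0.29, adjusted p 0.41 in limma) was -0.39 without fatty liver bird 1 and -1.80 without fatty liver bird 2.

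**Figure D2:**
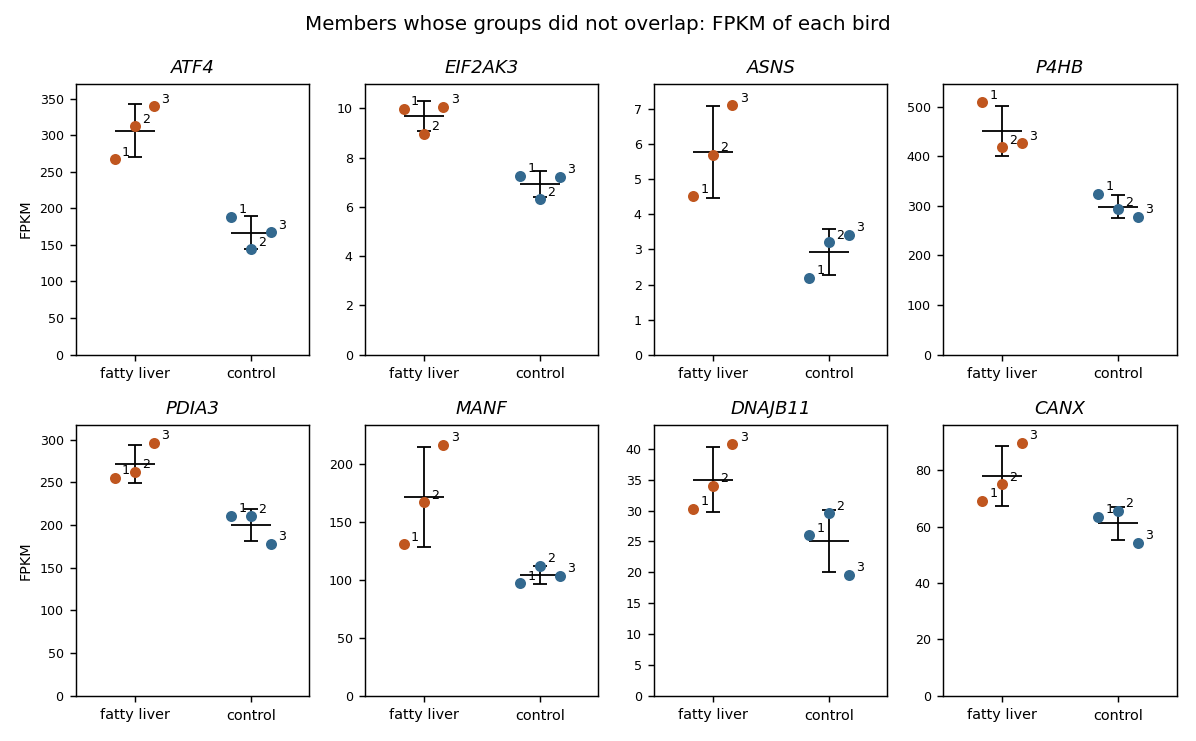
FPKM of each bird for the 8 members whose groups did not overlap, with fatty liver left of control. Points are birds labelled by their number, and the bars are the mean and SD of 3 birds. The gap between the groups is wide in ATF4, where the lowest fatty liver bird has 267 FPKM and the highest control bird 189 FPKM, and narrow in DNAJB11 (30.3 against 29.6 FPKM) and CANX (69.1 against 65.5 FPKM).

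Among the enzymes of oxidative folding, 5 of 6 had a log2 fold change above 0, with a median of 0.40. P4HB, the protein disulfide isomerase that also serves as a subunit of prolyl hydroxylase, had 509, 418 and 426 FPKM in fatty liver birds, against 325, 293 and 279 FPKM in control birds. Every fatty liver bird was above every control bird, and the log2 fold change was 0.59 (SE 0.16, adjusted p 0.12 in limma). PDIA3, which forms disulfides in glycoproteins held by calnexin and calreticulin, had 255, 262 and 296 FPKM in fatty liver birds, against 211, 210 and 178 FPKM in control birds. These groups did not overlap either, and the log2 fold change was 0.44 (SE 0.16, adjusted p 0.22 in limma). Summed over the 6 genes, oxidative folding took 993, 961 and 1032 FPKM in fatty liver birds, against 802, 717 and 623 FPKM in control birds. Most of each sum came from P4HB and PDIA3.

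The other isomerases overlapped between the groups. PDIA4 averaged 153 ± 25.8 FPKM in fatty liver and 120 ± 28.7 FPKM in control, and PDIA6 averaged 99.7 ± 16.3 FPKM in fatty liver and 74.1 ± 25.0 FPKM in control (SD, n = 3 each). The oxidases ERO1A and ERO1B, which pass electrons from the isomerases to oxygen, were the least abundant of the role. ERO1A averaged 3.72 ± 1.48 FPKM in fatty liver and 3.13 ± 0.98 FPKM in control. ERO1B averaged 16.4 ± 3.05 FPKM in fatty liver and 18.2 ± 3.12 FPKM in control. The log2 fold changes of 0.17 and -0.14 both had intervals that held 0, and each took the other sign without fatty liver bird 1. ERO1A was also the member with fewest fragments, 41 in control bird 1.

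The 8 ER chaperones all had log2 fold changes above 0, between 0.13 and 0.48, with a median of 0.31 and a smallest adjusted p of 0.30 in limma. Above 0 lay 67.2% of all tested genes. On the rescaled FPKM 7 of the 8 chaperones lay above 0, against 47.8% of all tested genes, with a median of 0.15. HSPA5 (BiP), the Hsp70 chaperone of the ER that also holds the sensors inactive, had 154, 367 and 497 FPKM in fatty liver birds 1, 2 and 3, against 294, 267 and 160 FPKM in control birds 1, 2 and 3. The lowest and the highest of all 6 birds both had fatty liver. HSPA5 averaged 340 ± 173 FPKM in fatty liver and 240 ± 70.9 FPKM in control (SD, n = 3 each), and the log2 fold change of 0.39 had a 95% interval of -0.60 to 1.38 (adjusted p 0.71 in limma). It was 0.88 without fatty liver bird 1, 0.036 without fatty liver bird 3 and 0.12 without control bird 3, and over the 15 alternatives the adjusted p ran between 0.24 and 0.99.

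HSP90B1 (GRP94), the Hsp90 chaperone of the ER, had 218, 375 and 464 FPKM in fatty liver birds, against 402, 306 and 175 FPKM in control birds. The order of the birds was that of HSPA5 in both groups, and the log2 fold change of 0.27 became -0.060 without control bird 3. HYOU1, a large Hsp70 relative that exchanges the nucleotide of HSPA5, had 30.02, 58.8 and 76.7 FPKM in fatty liver birds and 53.3, 41.0 and 32.4 FPKM in control birds, again in that order.

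The chaperones of the lectin cycle varied less between birds. CANX (calnexin), the membrane-bound lectin chaperone, had 69.1, 75.0 and 89.7 FPKM in fatty liver birds, against 63.5, 65.5 and 54.3 FPKM in control birds. Its groups did not overlap on the deposited FPKM, with a log2 fold change of 0.34 (SE 0.17, adjusted p 0.37 in limma). CALR (calreticulin), its soluble relative and by mean FPKM the most abundant member, averaged 640 ± 90.0 FPKM in fatty liver and 516 ± 70.8 FPKM in control, and its groups overlapped.

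Of the J-domain proteins, which deliver clients to HSPA5 and start its ATPase, DNAJB11 was apart between the groups. It had 30.3, 34.0 and 40.7 FPKM in fatty liver birds, against 25.98, 29.6 and 19.6 FPKM in control birds. The gap was under 1 FPKM, and the log2 fold change was 0.48 (SE 0.20, adjusted p 0.30 in limma). DNAJB9 averaged 5.58 ± 1.36 FPKM in fatty liver and 4.33 ± 0.79 FPKM in control, and DNAJC3, known as an inhibitor of EIF2AK3 as well as a chaperone partner, averaged 31.8 ± 1.18 FPKM in fatty liver and 29.0 ± 2.67 FPKM in control. The log2 fold change of DNAJC3 was 0.13 on the deposited FPKM and -0.031 on the rescaled FPKM.

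**Figure D3:**
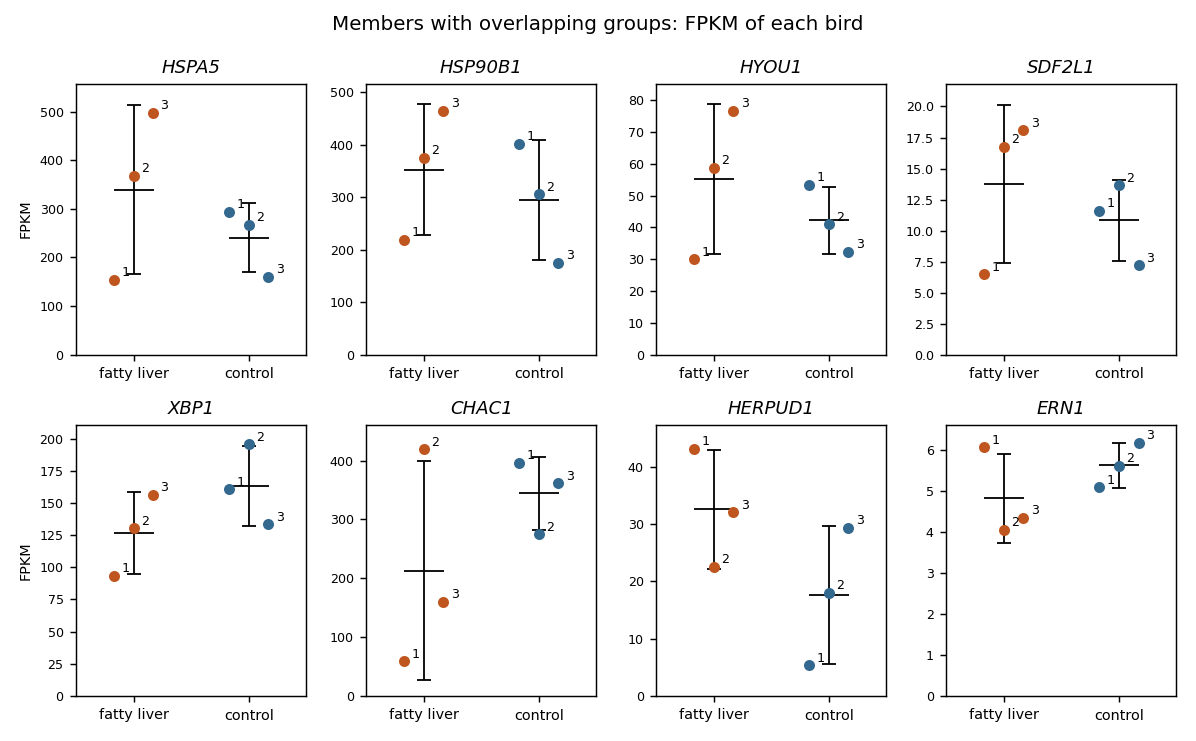
FPKM of each bird for 8 members whose groups overlapped, with fatty liver left of control. Points are birds labelled by their number, and the bars are the mean and SD of 3 birds. In HSPA5, HSP90B1, HYOU1 and SDF2L1 fatty liver bird 1 lies low and bird 3 high, while in HERPUD1 and ERN1 bird 1 is the highest of the fatty liver birds.

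The 3 small stress proteins had log2 fold changes above 0. MANF, a secreted protein that binds HSPA5 and is known as a survival factor, had 131, 167 and 217 FPKM in fatty liver birds, against 97.4, 112 and 104 FPKM in control birds. The groups did not overlap, and the fatty liver birds were more spread. The log2 fold change was 0.69 (SE 0.21, adjusted p 0.16 in limma). SDF2L1, which works with DNAJB11 and HSPA5, had 6.46, 16.8 and 18.1 FPKM in fatty liver birds, against 11.6, 13.7 and 7.19 FPKM in control birds. Fatty liver bird 1 was again the lowest of all 6, and the log2 fold change of 0.25 (95% interval -0.63 to 1.12) was 0.68 without that bird. CRELD2 averaged 39.4 ± 9.72 FPKM in fatty liver and 30.1 ± 11.7 FPKM in control.

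All 8 measured ERAD genes had log2 fold changes above 0, against 67.2% of all tested genes, with a median of 0.23, and all had overlapping groups. On the rescaled FPKM 6 of the 8 lay above 0, against 47.8% of all tested genes, with a median of 0.072. HERPUD1, an ER membrane protein that gathers the HRD1 ligase complex and is strongly induced by ER stress, had 43.2, 22.5 and 32.0 FPKM in fatty liver birds 1, 2 and 3, against 5.36, 18.0 and 29.4 FPKM in control birds 1, 2 and 3. Control bird 1 was far below the rest, and control bird 3 was above fatty liver bird 2. Its log2 fold change of 1.07 (SE 0.53, 95% interval -0.14 to 2.29, adjusted p 0.36 in limma) was 0.44 without control bird 1.

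The derlins, thought to help misfolded proteins back across the membrane, had log2 fold changes of 0.28 for DERL1, 0.18 for DERL2 and 0.46 for DERL3. With 1 bird left out, DERL1 ran between 0.12 (without fatty liver bird 3) and 0.38, and DERL2 between 0.082 (without control bird 1) and 0.35 (without control bird 2). DERL3 averaged 45.1 ± 9.82 FPKM in fatty liver and 32.6 ± 7.04 FPKM in control. The EDEM genes, which act on mannose-trimmed glycoproteins that fail to fold, had log2 fold changes of 0.33, 0.0098 and 0.092 for EDEM1, EDEM2 and EDEM3. SEL1L, the partner of the HRD1 ligase, had 0.17. EDEM2 and EDEM3 turned to -0.13 and -0.060 on the rescaled FPKM.

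Among the 4 translocation genes, SEC61B, a small subunit of the channel, had 187, 220 and 292 FPKM in fatty liver birds, against 191, 171 and 111 FPKM in control birds. Control bird 1 was above fatty liver bird 1, and the log2 fold change was 0.57 (SE 0.25, adjusted p 0.32 in limma) and 0.34 without control bird 3. SEC61A1, the pore of the channel, averaged 49.6 ± 13.9 FPKM in fatty liver and 40.6 ± 7.79 FPKM in control. SSR1 and SSR2, subunits of the translocon-associated complex, had log2 fold changes of 0.094 and -0.16, and that of SSR1 was -0.071 on the rescaled FPKM.

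**Figure D4:**
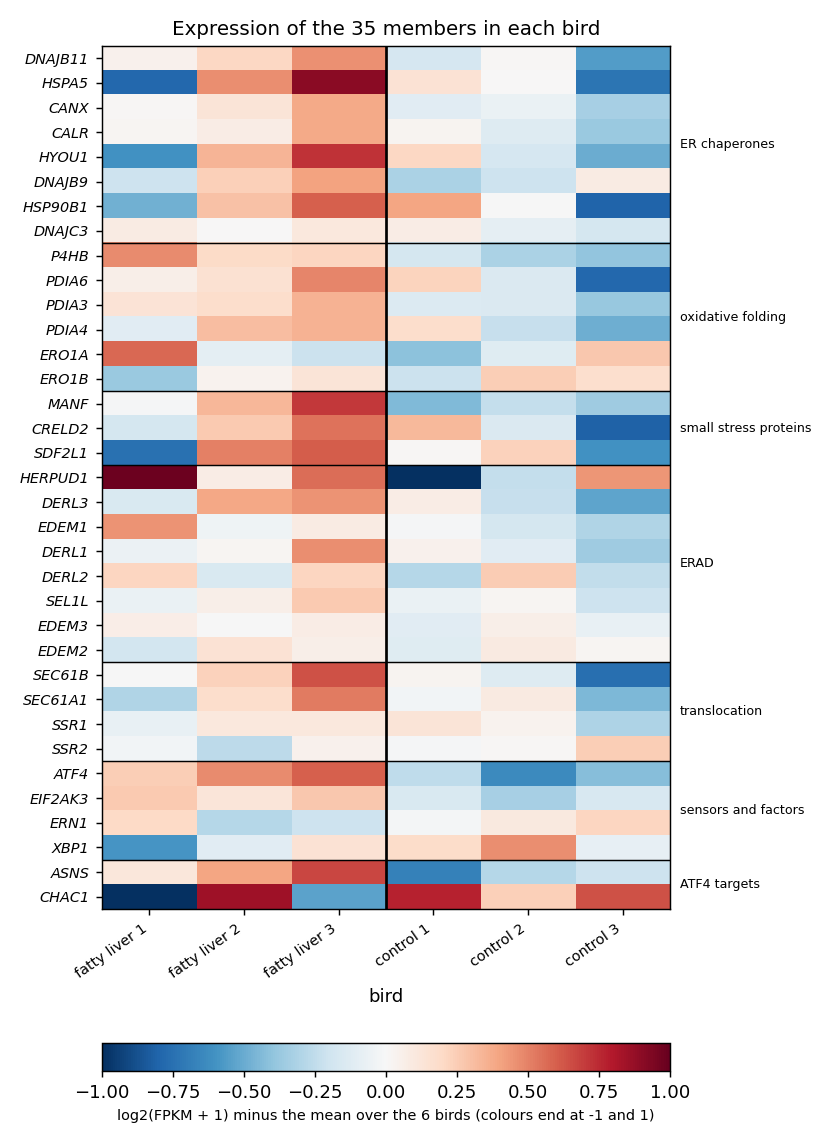
Expression of the 35 members in each bird, as log2(FPKM + 1) minus the member's mean over the 6 birds, with fatty liver birds left of control birds and members grouped by role. Red is above and blue below the member's mean, and colours end at -1 and 1. The column of fatty liver bird 1 is blue in HSPA5, HYOU1, HSP90B1 and SDF2L1 and red in P4HB, ERO1A, HERPUD1 and EDEM1, and that of control bird 3 is blue in most chaperones.

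In many members the birds of 1 group stood in the same order. In 23 of 35 members the fatty liver birds stood in the order 1, 2, 3 from low to high, an order found in 20.5% of all tested genes. Fatty liver bird 1 was the lowest of its group in 25 members (32.2% of all tested genes) and control bird 3 the lowest of its group in 21 (32.4% of all). The bird numbers carry no order of their own. The orders counted are those that HSPA5, itself a member, had in these birds, so they come from the same values. On the rescaled FPKM fatty liver bird 1 was the lowest in 25 members (29.6% of all tested genes) and control bird 3 in 21 (34.4% of all). The full order 1, 2, 3 held in 20 members there, against 16.3% of all tested genes. These counts describe 6 birds, in each of which all members share 1 library, and have no test.

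Summed over the 8 chaperones, fatty liver birds 1, 2 and 3 had 1116, 1546 and 1951 FPKM, against 1457, 1263 and 915 FPKM in control birds 1, 2 and 3. Fatty liver bird 1 lay below control birds 1 and 2 in this sum, while in the sum of the oxidative folding enzymes it lay above all controls. The spread within groups of HSPA5, at an SD of 0.70 on the log2 scale, was at percentile 95.8 of all tested genes. HSP90B1 was at percentile 93.2, SDF2L1 at 94.2, HERPUD1 at 97.9 and CHAC1 at 98.6. P4HB was at percentile 13.2 and ATF4 at 31.0, so these members were close between birds of a group. Without fatty liver bird 1, 19 members had groups without overlap and 12 had an unadjusted p under 0.05, and without control bird 1 there were 17 and 10. Over all tested genes the shares were 34.4% without overlap and 14.9% at that p without fatty liver bird 1, and 33.3% and 14.6% without control bird 1, against 54.3% and 34.3% of members in the first and 48.6% and 28.6% in the second. Without fatty liver bird 3 there were 10 members without overlap and 4 at that p, 28.6% and 11.4% of members, against 28.5% and 11.4% of all tested genes. Without fatty liver bird 2, control bird 2 or control bird 3, the shares without overlap were 37.1%, 28.6% and 31.4% of members. Over all tested genes they were 32.0%, 39.1% and 31.6%. At that p the shares were 17.1%, 20% and 17.1% of members, against 12.9%, 18.6% and 13.7% of all tested genes. No member passed the adjusted threshold in these fits. With 1 bird left out, the log2 fold change moved by over 1.5 times in 27 members and by less in 8, which were CANX, PDIA3, P4HB, MANF, DERL3, EIF2AK3, ATF4 and ASNS. The share of all tested genes that moved so was not counted. A log2 fold change near 0, such as that of EDEM2 (0.0098), passes this ratio with a small move.

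Likeness to HSPA5 was described after these values had been seen, as the SD over the 6 birds of the log2 ratio of a gene's FPKM to that of HSPA5, where a small SD means a near constant ratio. Of 10885 genes compared, SDF2L1 was the nearest (SD 0.17) and HYOU1 the next (0.18), and HSP90B1 was the 7th (0.24). CYTH3, BZFP1, TXNDC11 and AVDL came between them, and 41 of the nearest 50 genes were neither members nor in the further ER list. SEC61A1, CRELD2 and DERL3 were also among the nearest 50, and the median SD was 0.55 over the other 34 members and 0.74 over all genes. HSPA5 FPKM stood at 23.8, 21.9 and 27.5 times those of SDF2L1 in fatty liver birds, against 25.4, 19.5 and 22.2 times in control birds. Its ratio to ATF4 was 0.58, 1.18 and 1.47 in fatty liver birds, against 1.56, 1.85 and 0.96 in control birds, so ATF4 did not keep to a fixed ratio with HSPA5. A gene's exon length is the same in every bird, and a library's scale is shared by both genes of a ratio. Neither therefore changes this SD, which describes 6 birds and has no test.

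**Figure D5:**
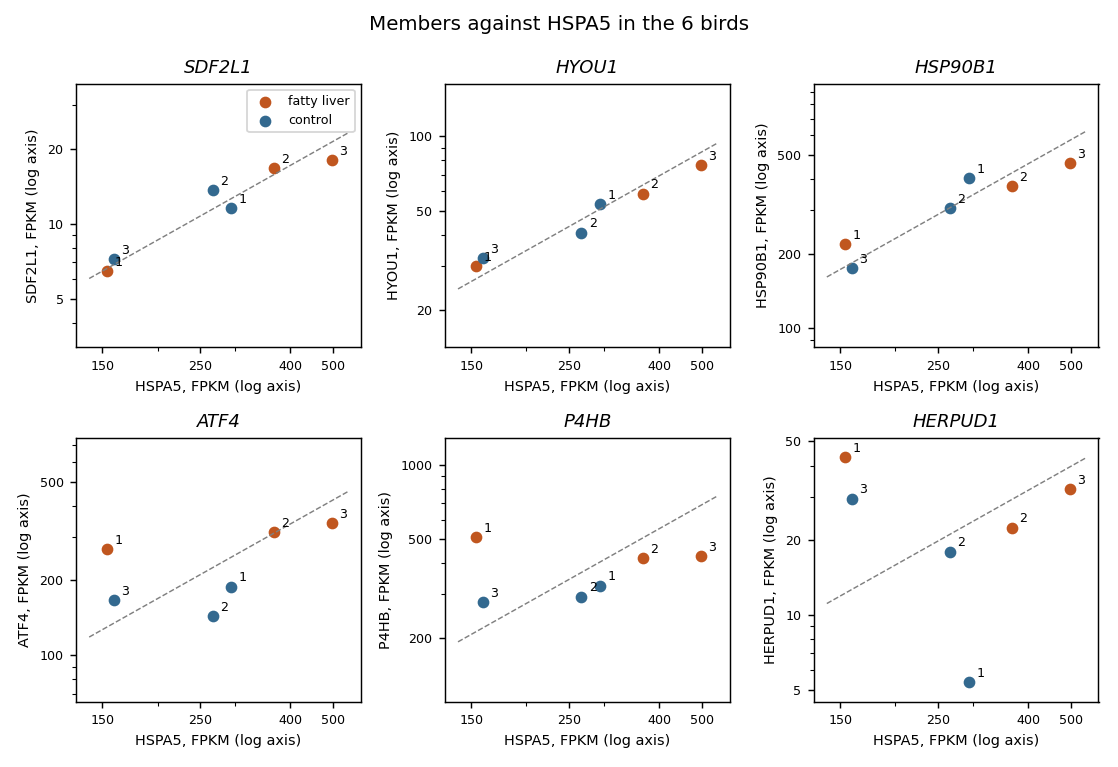
FPKM of 6 members against FPKM of HSPA5 in the 6 birds, both on log axes, with points labelled by bird number. The dashed line marks a constant ratio to HSPA5, set at the geometric mean of the ratio over the birds. SDF2L1, HYOU1 and HSP90B1 lie close to the line, while fatty liver bird 1 lies above it in ATF4, P4HB and HERPUD1 and control bird 1 far below it in HERPUD1.

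Markers of other cell types were read beside these orders. The summed FPKM of 7 macrophage genes was 203, 615 and 1030 in fatty liver birds 1, 2 and 3, against 284, 523 and 599 in control birds 1, 2 and 3, with 0 of 7 called and no defining marker at 0. The order of the fatty liver birds was that of HSPA5, while among control birds the one with the lowest macrophage sum had the highest HSPA5. The sum of 8 lymphocyte genes, 21.3, 26.2 and 52.4 FPKM in fatty liver birds 1, 2 and 3 against 38.1, 47.8 and 70.3 FPKM in control birds 1, 2 and 3, and that of 6 cholangiocyte genes, 53.3, 66.5 and 115 FPKM against 58.4, 77.3 and 113 FPKM, had the same order of the fatty liver birds and, among controls, the reverse of the order of HSPA5. Of the plasma cell genes, whose cells are rich in ER chaperones, JCHAIN had 1.17, 3.75 and 21.9 FPKM in fatty liver birds and 3.86, 2.499 and 4.64 FPKM in control birds, MZB1 was at 0 in control bird 2, and none of the 3 tested was called, 1 of which was XBP1, itself a member. The 6 plasma cell genes found summed to 98.6, 137 and 184 FPKM in fatty liver birds, against 167, 202 and 142 FPKM in control birds. XBP1 alone took 93.4, 130 and 156 FPKM of these sums in fatty liver birds, and 161, 196 and 134 FPKM in control birds. Groups did not overlap in 1 of the 6, against 23.0% of all tested genes. The part of these cells in the members' values was not tested. No gene of the lymphocyte, stellate cell or endothelial lists was called, while the cholangiocyte marker SOX9 (adjusted p 0.038 in limma, 1 of 5 tested, in a list whose sum overlapped between the groups) and the erythroid marker ALAS2 (adjusted p 0.041, 1 of 4 tested) were called higher in fatty liver. The erythroid sums also overlapped, with 952, 1921 and 1203 FPKM in fatty liver birds, against 1252, 1220 and 1335 FPKM in control birds. The 10 hepatocyte markers summed to between 128137 and 138182 FPKM in fatty liver birds and between 124488 and 154195 FPKM in control birds, with 0 called. The 9 acinar genes of pancreas, another tissue with much ER, summed to 1.15 to 1.36 FPKM in fatty liver and 0.91 to 1.93 FPKM in control, and 4 of them were at 0 in all birds.

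Of a further list of 108 genes of the ER and the early secretory pathway, 94 were tested and 0 called by limma, with 11 higher and 1 lower at an unadjusted p under 0.05 and 18 higher and 3 lower without overlap. These were 12.8% of the list at that p and 22.3% without overlap, 19.1% higher, against 16.3%, 23.0% and 18.3% of all tested genes. The median log2 fold change was 0.19, against 0.12 over all tested genes. On the rescaled FPKM the median was 0.026, against -0.013 over all tested genes. There 50 of the 94 lay above 0, against 47.8% of all tested genes. On that scale 8 lay higher and 8 lower without overlap, against 1128 and 1205 of the 10886 tested genes. The smallest p-values were those of DDOST, a subunit of oligosaccharyltransferase, VCP, the ATPase that extracts ERAD substrates, and SAR1B, the GTPase of vesicle exit from the ER. DDOST had 113, 110 and 142 FPKM in fatty liver birds, against 87.6, 75.0 and 64.8 FPKM in control birds (log2 fold change 0.68, adjusted p 0.12 in limma). VCP had 61.0, 68.8 and 80.2 FPKM in fatty liver birds, against 42.4, 51.7 and 34.0 FPKM in control birds (0.71, adjusted p 0.14). SAR1B had 99.3, 88.0 and 97.0 FPKM in fatty liver birds, against 63.3, 71.5 and 65.6 FPKM in control birds (0.50, adjusted p 0.16). In all 3 genes the groups were apart.

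Beyond ASNS and CHAC1, 19 of 30 further genes known as ATF4 targets in mammals were tested, and 1 was called, lower in fatty liver. This was PSAT1, an aminotransferase of serine synthesis, with 194, 159 and 158 FPKM in fatty liver birds, against 476, 569 and 533 FPKM in control birds. Its groups were far apart, with a log2 fold change of -1.62 (SE 0.16, adjusted p 0.010 in limma), and it passed the threshold under each of the 15 alternatives. At an unadjusted p under 0.05 there were 6 higher and 3 lower, and 7 lay higher and 3 lower without overlap, or 47.4% of the list at that p and 52.6% without overlap, against 16.3% and 23.0% of all tested genes. The list was chosen with earlier results of these data known, so these shares only describe it and have no test. The other two lower genes, named after their values were seen, were PHGDH, the first enzyme of serine synthesis (log2 fold change -0.87, adjusted p 0.094 in limma), and GPT2, an alanine aminotransferase (-1.92, adjusted p 0.089). The stress factors ATF3 (1.20, adjusted p 0.11) and CEBPB (1.01, adjusted p 0.13), named in the same way, lay above control without overlap, so the list held values in both directions.

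Chaperones and proteases outside the ER were read beside these. Of 26 heat shock genes of cytosol and mitochondria, 24 were tested and 0 called by limma, 4 had an unadjusted p under 0.05 (16.7%, against 16.3% of all tested genes), and the median log2 fold change was 0.025. TRAP1, the mitochondrial Hsp90, had 27.8, 24.2 and 28.2 FPKM in fatty liver birds, against 18.2, 17.3 and 16.3 FPKM in control birds (log2 fold change 0.60, adjusted p 0.10 in limma). HSPA2, an Hsp70 of the cytosol, had 266, 140 and 161 FPKM in fatty liver birds, against 274, 396 and 342 FPKM in control birds (-0.88, adjusted p 0.16). LONP1, a mitochondrial protease, had 18.2, 17.5 and 18.6 FPKM in fatty liver birds, against 14.9, 14.7 and 11.1 FPKM in control birds (0.40, adjusted p 0.28). The groups were apart in all 3, in both directions, but these genes were named for their small p-values. Over the list, groups did not overlap in 4 of the 24 genes, 16.7% against 23.0% of all tested genes.

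The cargo that this machinery handles was read from 15 secreted proteins of hepatocytes. ALB had 67938, 74473 and 62320 FPKM in fatty liver birds, against 107416, 90339 and 92788 FPKM in control birds. Every fatty liver bird was below every control bird, with a log2 fold change of -0.50 (SE 0.15, adjusted p 0.15 in limma). Over the 15 genes the median log2 fold change was -0.16, with 12 below 0 and 0 called by limma. At an unadjusted p under 0.05 there were 2 lower and 1 higher, 20% of the list against 16.3% of all tested genes, and the highest log2 fold change was 1.13. Without overlap, 4 lay lower and 1 higher, 33.3% of the list against 23.0% of all tested genes. Of all 10886 tested genes, 3572 lay below 0, 402 were lower at an unadjusted p under 0.05 in limma, and 520 lay lower without overlap. P4HB and CALR, the most abundant members, had 0.59 and 0.31.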

How the data were processed

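RNA-seq was made from the livers of 6 birds, 3 per group. The authors filtered reads with Sickle and SeqPrep, mapped them to Gallus_gallus_5.0 and deposited FPKM per gene and library. The aligner, the counting tool and the annotation are not given in the sources used here. Genes were named from RefSeq's table of another assembly (bGalGal1.mat.broiler.GRCg7b), which matched 16332 of 20498 IDs, so no coordinates are given, and no sequence was used. Each value column was assigned to a bird by its title.

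Genes whose mean reached 1 FPKM were fitted on log2(FPKM + 1), with a pseudocount of 1, with limma 3.58.1 (lmFit, eBayes with trend) in R 4.3.3. No covariate was used, p-values were adjusted by Benjamini-Hochberg over all tested genes, and the threshold was 0.05. The pseudocount makes log2 fold changes of low genes smaller than they are. The p-values set the group difference against the spread between these birds, which eBayes draws towards a trend over all tested genes. The families of the birds are not stated, so the spread between families was not measured.

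Whole fragments were worked out from the FPKM and gave back 99.8% of values above 0 within a relative tolerance of 1e-06. They served for depth (a floor of 3 fragments) and for voom. Whether PCR duplicates were marked is not given in the sources used here, and depth covers counting error only.

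Named members were those with non-overlapping groups, the 8 of largest absolute log2 fold change, and HSPA5, HSP90B1, HERPUD1, SDF2L1, ERN1, EIF2AK3, ATF6, XBP1, ATF4, DDIT3, TRIB3, ASNS and CHAC1 whatever their values. From each further list, genes past the threshold or otherwise the 3 with the smallest p were named, and ALB. HYOU1 and other members were added after their values were seen. The members and lists were chosen with earlier results of these data known. Alternatives were a pseudocount of 0.1, no filter and 3 other scalings. Others were eBayes without trend, robust eBayes with trend, a replicate block, voom, and each bird left out.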

Additional observations from a re-analysis of the deposited data

How the results depend on the processing

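Across the 15 alternatives no member and none of the further ER genes passed the threshold. The median log2 fold change of the members stayed above 0, between 0.14 and 0.47, and above that of all tested genes by 0.051 (without control bird 3) to 0.36 (without fatty liver bird 1). Genes called numbered 124 on the deposited FPKM (92 higher, 32 lower), 30 with no filter on low values and 79 with libraries scaled to the same median (43 higher, 36 lower), and between 22 and 119 with 1 bird left out, the fewest without fatty liver bird 3. Under quantile normalization there were 85 calls (45 higher, 40 lower), after rescaling without the 50 most abundant genes 84 (44 higher, 40 lower) and under voom 98 (46 higher, 52 lower), so the excess of higher calls was smaller or absent on these scales. Members with an unadjusted p under 0.05 numbered 7, against 4 with the same median, 3 with voom and 4 to 12 with 1 bird left out, while the share of all tested genes was 16.3%, 15.8%, 15.8% and 11.4 to 18.6%. Members without overlap numbered 8, against 5 with the same median, 5 with voom and 10 to 19 with 1 bird left out, while the share of all tested genes was 23.0%, 21.95%, 21.7% and 28.5 to 39.1%. With the same median, quantile normalization, rescaling and voom, log2 fold changes crossed 0 in DNAJC3 (-0.012, -0.0045, -0.031 and -0.014), EDEM2 (-0.11, -0.10, -0.13 and -0.14), EDEM3 (-0.042, -0.037, -0.060 and -0.048) and SSR1 (-0.051, -0.10, -0.071 and -0.053). These scalings moved the median of all tested genes to about 0, and none of these 4 genes differed beyond its error on any scale. With 1 bird left out, ERO1A (range -0.069 to 0.35) and ERO1B (-0.28 to 0.013) crossed 0 without fatty liver bird 1, EDEM2 (-0.059 to 0.10) without fatty liver bird 2 or 3 or control bird 1, and HSP90B1 (-0.060 to 0.58) and SSR1 (-0.035 to 0.18) without control bird 3. With the replicate block, 140 genes and 0 members were called. Same-numbered birds are different animals whose deviations correlated at 0.025 to 0.048, against -0.091 to 0.057 for differently numbered birds. The labels give no pairing by number, and whether same-numbered libraries shared a preparation batch was not tested. The log2 fold change exceeded the member's own SD within groups in 23 of 35 members, none past the threshold with 3 birds per group. The same share over all tested genes was not counted, so this count does not set the members apart from other genes.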
